A study of Homo sapiens with 4 samples.

Results

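The genes examined here are 6 genes that are active in the embryo and often raised in tumors, most of them low in adult tissues: the mRNA-binding proteins IGF2BP1, IGF2BP2 and IGF2BP3, the RNA-binding protein LIN28B, and the chromatin proteins HMGA1 and HMGA2. They were chosen by name, and all 6 had a row among the 25559 gene symbols counted. RNA-seq of poly(A) RNA was performed on HGC-27, an established human gastric cancer cell line, in 2 libraries of wt cells (genotype wildtype, the control) and 2 libraries of RUNX3KO cells, in which RUNX3, a RUNX family transcription factor, was targeted by CRISPR. According to the study's methods, the guide was directed at a RUNX3 exon, the cells were selected with puromycin and single cells were cloned, so the RUNX3KO libraries may stem from a single clone. Which clone gave which library, and whether the libraries of a group came from separate cultures, is not given in the sources used here. The p-values therefore measure only the spread between these libraries, which may be technical.

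Each library held between 11731401 and 12110876 reads on genes, and the libraries of a group differed slightly beyond counting noise (chi-square per degree of freedom 1.22 in wt and 1.18 in RUNX3KO). RUNX3 had 351 and 308 counts in wt and 225 and 185 counts in RUNX3KO, or -0.70 as log2 fold change (standard error, SE, 0.0961, adjusted p = 1.43e-09), so the RNA of the targeted gene was lower but present. Of 12 gastric and epithelial markers, 9 were too low to test. Of the 3 tested, the epithelial keratin gene KRT8 was higher in RUNX3KO, with 19 and 11 counts in wt and 72 and 81 counts in RUNX3KO (log2 fold change 2.33, SE 0.251, adjusted p = 1.90e-13). CDH1, the epithelial cadherin gene, was also higher, with 15 and 21 counts in wt and 30 and 32 counts in RUNX3KO (log2 fold change 0.77, SE 0.293, adjusted p = 0.0238). EPCAM had at most 1 count per library and KRT19, MUC5AC, TFF1 and CLDN18 had 0, whereas VIM, a mesenchymal filament gene, reached 4885 counts per 1000000 reads on genes (CPM) in wt and 2901 CPM in RUNX3KO. Among 8 markers of blood, endothelial and fibroblast cells, CD3E, PECAM1 and CDH5 had 0 counts, and the fibroblast genes DCN, LUM and ACTA2 were each lower in RUNX3KO, with log2 fold changes between -0.78 and -0.39. In such bulk libraries, fewer cells that express a gene and less RNA per cell cannot be told apart, and whether these shifts take part in the changes described next was not tested.

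IGF2BP proteins bind mRNAs through KH domains and protect them from decay, and they act as readers of m6A, a methyl mark on mRNA. LIN28B binds the precursors of let-7 microRNAs and blocks their maturation, and let-7 in turn represses mRNAs that carry matches to its seed, among them those of LIN28B, IGF2BP1 and HMGA2. HMGA proteins bind AT-rich DNA through AT hooks and shape chromatin, and HMGA2 in particular is largely restricted to embryonic and tumor cells.

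The seed that ties these genes together is shared by 11 mature human miRNAs in the RefSeq table used here (GRCh38.p14). A few of them are shown 5′ to 3′, with the seed, bases 2 to 8, in capitals.

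hsa-let-7a-5p: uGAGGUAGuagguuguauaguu
hsa-let-7b-5p: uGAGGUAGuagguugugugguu
hsa-let-7g-5p: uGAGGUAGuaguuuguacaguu
hsa-miR-98-5p: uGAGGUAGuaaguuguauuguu

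The match to this seed was searched as CTACCTC, on the transcript's strand only, in the annotated 3′ UTRs of GRCh37. For each gene, the match nearest to the stop codon is shown with its flanking bases, 5′ to 3′ on the strand of the gene, with the 7 matching bases in capitals. A further A directly after the match makes it an 8mer.

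HMGA2, chr12:66357079-66357100, plus strand: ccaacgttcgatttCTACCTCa
LIN28B, chr6:105526688-105526709, plus strand: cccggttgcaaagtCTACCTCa
IGF2BP1, chr17:47128424-47128445, plus strand: gtgtgcgaagtaaaCTACCTCa
IGF2BP2, chr3:185362008-185362029, minus strand: acacacagaagaagCTACCTCa
IGF2BP3, chr7:23351414-23351435, minus strand: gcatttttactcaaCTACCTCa
HMGA1, chr6:34213607-34213628, plus strand: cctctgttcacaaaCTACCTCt

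HMGA2, LIN28B and IGF2BP1 each held 4 matches, of which 1, 2 and 3 were 8mers, and the other 3 genes held 1 match each. A match is common to 9.77% of the 19407 genes with an annotated 3′ UTR, but 4 or more were found in only 12 genes (0.0618%), and 3 of these are HMGA2, LIN28B and IGF2BP1. Their UTRs are also long, with 2999 bases in HMGA2, 4549 in LIN28B and 6701 in IGF2BP1 against a median of 1067 over all genes. The match nearest to the stop codon began 21 bases after it in HMGA2 and 44 bases after it in LIN28B.

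All 6 genes passed the filter on low counts and were tested, and each differed between RUNX3KO and wt at an adjusted p under 0.05 in edgeR's quasi-likelihood test, adjusted by Benjamini and Hochberg over the 12967 tested genes. A gene past this threshold is called here. IGF2BP1, IGF2BP2, LIN28B, HMGA1 and HMGA2 were higher in RUNX3KO and IGF2BP3 was lower. The differences were small: none of the 6 reached a 2-fold change, and the largest were 1.32-fold. The background was wide, since 24.5% of all tested genes were called higher, 24.4% lower and 48.9% in either direction. The study's limits, a fold change of at least 2 and a p of at most 0.05, taken here as unadjusted, were met by 6.12% of tested genes. The libraries of the groups did not overlap for any of the 6 genes, which was also the case for 72.7% of tested genes. The median log2 fold change was 0.22 over the 6 genes and -0.0021 over all tested genes.

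**Figure D1:**
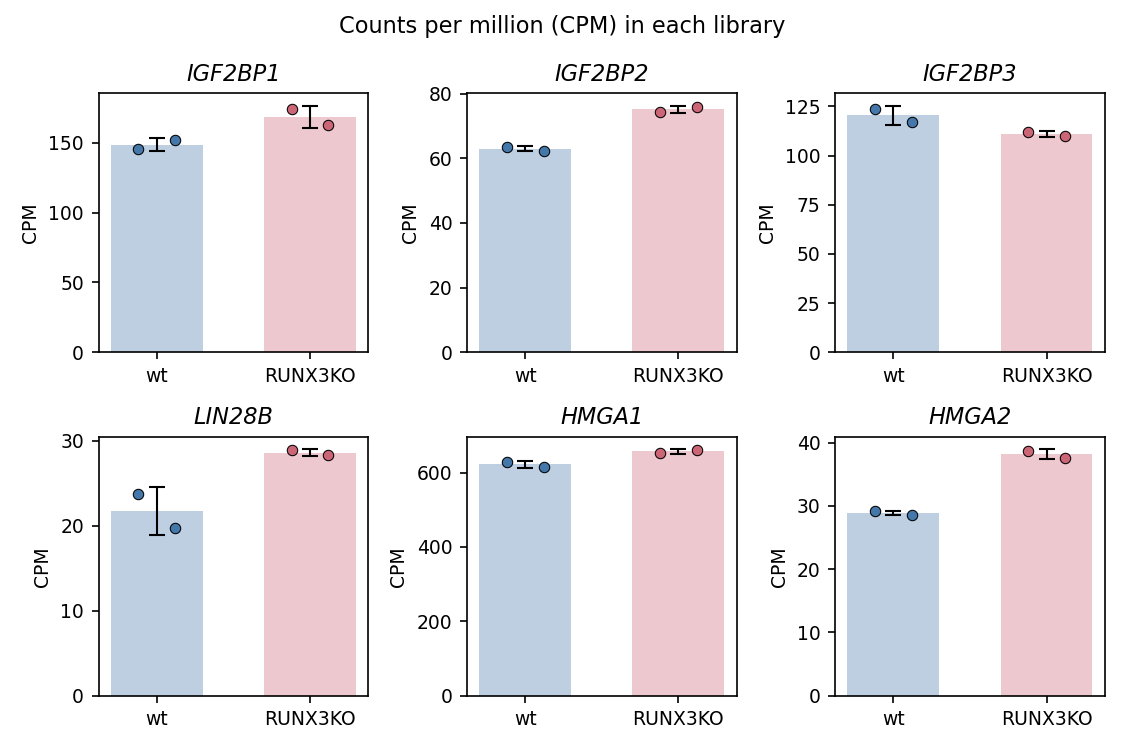
Each panel plots the CPM of 1 gene, with points for the 2 wt and 2 RUNX3KO libraries, bars for their means and error bars for the SD, on axes that start at 0. In each panel the RUNX3KO points lie on 1 side of the wt points, below them for IGF2BP3 and above them for the other genes, and the wt points of LIN28B are the farthest apart relative to their mean.

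IGF2BP1 (chr17:47074747-47133507, plus strand, GRCh37) is the founding member of its family and binds coding-region determinants, including that of MYC. Its level was 145 and 152 CPM in wt and 174 and 163 CPM in RUNX3KO. Both RUNX3KO libraries lay above both wt libraries, but they differed from each other by more than the wt libraries did. The mean went from 149 ± 4.90 to 169 ± 7.84 CPM (SD, n = 2 libraries each), a log2 fold change of 0.18 (SE 0.0385, 95% interval 0.105 to 0.258, adjusted p = 3.83e-05). Of all tested genes, 52.2% moved at least this far in either direction. The adjusted p rose to 0.114 without RUNX3KO replicate 1 and to 0.0516 without RUNX3KO replicate 2.

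IGF2BP2 (chr3:185360918-185542830, minus strand), the family member that stays on in many adult tissues, was measured at 63.6 and 62.4 CPM in wt and at 74.5 and 75.9 CPM in RUNX3KO. The libraries of each group lay close together, and the gap between the groups was far wider than either spread. Its mean changed from 63.0 ± 0.88 to 75.2 ± 1.04 CPM (SD, n = 2 each), which was 1.19-fold (log2 fold change 0.26, SE 0.0535, adjusted p = 3.18e-05). It was the family member with the greatest relative change, and 39.4% of tested genes moved at least as far. Without RUNX3KO replicate 2 the adjusted p was 0.0509.

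IGF2BP3 (chr7:23349828-23510110, minus strand), which is used as a tumor marker in pathology, was the gene that went the other way. It had 124 and 117 CPM in wt and 112 and 110.0 CPM in RUNX3KO. The wt libraries differed from each other by more than the lower of them differed from RUNX3KO replicate 1. Its mean fell by 7.81%, from 120.5 ± 4.88 to 111 ± 1.57 CPM (SD, n = 2 each), which was a log2 fold change of -0.12 (SE 0.0430, 95% interval -0.203 to -0.0319, adjusted p = 0.0180), and 67.0% of tested genes moved at least as far. This call was lost with DESeq2 (adjusted p = 0.221) and in edgeR's test with no filter on low counts (adjusted p = 0.0973). It was also lost in edgeR's test without wt replicate 1, RUNX3KO replicate 1 or RUNX3KO replicate 2. The log2 fold changes of these fits were -0.075, -0.13 and -0.10 in the same order. C7orf30 (current symbol MALSU1), a mitochondrial ribosome assembly gene, overlaps IGF2BP3 on the opposite strand. It had 596 and 623 counts in wt and 847 and 849 counts in RUNX3KO (log2 fold change 0.46, SE 0.0570, adjusted p = 3.27e-11). The library kit keeps the strand, but whether counting used it is not given in the sources used here. Without that, reads of IGF2BP3 and C7orf30 in the shared stretch could not be told apart.

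In these libraries IGF2BP1 and IGF2BP2 were higher and IGF2BP3 lower in RUNX3KO, so the balance of counts within the family differed between the groups. The log2 ratio of IGF2BP1 to IGF2BP3 counts was 0.23 and 0.38 in wt and 0.64 and 0.57 in RUNX3KO. The log2 ratio of IGF2BP2 to IGF2BP3 counts was -0.96 and -0.91 in wt and -0.59 and -0.53 in RUNX3KO. The RUNX3KO libraries lay above the wt libraries in both ratios, and the exact permutation test, two-sided, gave p = 0.333 for each, the smallest value that 2 against 2 libraries allow. Compared per kilobase of annotated exon, IGF2BP1 was at 15.4 ± 0.51 CPM per kb in wt, IGF2BP3 at 14.1 ± 0.57 and IGF2BP2 at 11.8 ± 0.17 (SD, n = 2 each). In RUNX3KO the levels were 17.5 ± 0.81 CPM per kb for IGF2BP1, 14.1 ± 0.20 for IGF2BP2 and 13.0 ± 0.18 for IGF2BP3, so the order of the last 2 was exchanged. On this scale IGF2BP3 made up 34.1% of the summed IGF2BP level in wt and 29.1% in RUNX3KO.

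The order depends on which length is used. With the length of the main annotated transcript (the MANE transcript) in place of all exons, IGF2BP3 was the highest of the family in both groups, at 28.2 ± 1.14 CPM per kb in wt and 26.0 ± 0.37 in RUNX3KO, followed by IGF2BP1 at 16.9 and 19.2 and IGF2BP2 at 14.7 and 17.6. The share of IGF2BP3 on that scale was 47.1% in wt and 41.4% in RUNX3KO. Both count ratios to IGF2BP3 were higher in RUNX3KO, so the share of IGF2BP3 falls with any fixed lengths. The same direction with either length is therefore no separate support.

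LIN28B (chr6:105384491-105531207, plus strand), the let-7 antagonist, had 280 and 233 counts in wt and 341 and 341 counts in RUNX3KO. In CPM this was 23.7 and 19.7 in wt and 28.9 and 28.4 in RUNX3KO. The RUNX3KO libraries were nearly alike, whereas the wt libraries differed from each other by nearly as much as the higher of them differed from RUNX3KO. The mean rose from 21.7 ± 2.81 to 28.6 ± 0.37 CPM (SD, n = 2 each), which was 1.32-fold (log2 fold change 0.40, SE 0.0889, 95% interval 0.221 to 0.574, adjusted p = 9.62e-05), and 24.2% of tested genes moved at least as far. The size rested on which wt library was kept, from a log2 fold change of 0.27 to one of 0.54, and the adjusted p was 0.127 without RUNX3KO replicate 1 and 0.1251 without RUNX3KO replicate 2. Its paralog LIN28A had 0 and 0 counts in wt and 1 and 2 counts in RUNX3KO, at or under 3 counts in every library, so no fold is given.

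HMGA1 (chr6:34204650-34214008, plus strand) was by far the most abundant of the 6 genes, at rank 192 of the tested genes by mean CPM. Its level was 629 and 615 CPM in wt and 653 and 661 CPM in RUNX3KO. The groups did not overlap, but the gap between them was small beside the level. The change from 622 ± 10.1 to 657 ± 5.70 CPM (SD, n = 2 each) was a rise of 5.57% (log2 fold change 0.078, SE 0.0246, adjusted p = 0.00549), and 77.5% of tested genes moved at least as far. The call was lost with DESeq2 (adjusted p = 0.0652), and in edgeR's test without wt replicate 2 (adjusted p = 0.0627), RUNX3KO replicate 1 (adjusted p = 0.0956) or RUNX3KO replicate 2 (adjusted p = 0.160). The rows of its pseudogenes HMGA1P4 and HMGA1P7 had 0 counts in every library.

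HMGA2 (chr12:66218240-66360071, plus strand), the more strictly embryonic paralog, had 344 and 338 counts in wt and 457 and 452 counts in RUNX3KO, or 29.1 and 28.6 CPM against 38.7 and 37.6 CPM. The libraries within each group were nearly alike. Its mean went from 28.9 ± 0.35 to 38.2 ± 0.79 CPM (SD, n = 2 each), again 1.32-fold (log2 fold change 0.40, SE 0.0762, 95% interval 0.250 to 0.553, adjusted p = 5.17e-06), and 23.9% of tested genes moved at least as far. Its call was kept whichever library was left out, with adjusted p up to 0.0353. A fit without a library leaves a single library in that group, which is assumed to vary like the other group. A call lost there can come with a smaller effect, as for IGF2BP3 without wt replicate 1 (log2 fold change -0.075 against -0.12). It can also come with a larger one, as for IGF2BP1 without RUNX3KO replicate 2 (0.23 against 0.18). Of the rows that overlap HMGA2 on the opposite strand, RPSAP52 had 2 and 1 counts in wt and 0 in RUNX3KO, and LOC100129940 (HMGA2-AS1) had 0 throughout. The log2 ratio of HMGA2 to HMGA1 counts was -4.43 and -4.42 in wt and -4.08 and -4.14 in RUNX3KO (exact permutation test, two-sided, p = 0.333, the smallest possible). Per kilobase of annotated exon, HMGA1 was at 267 CPM per kb in wt and 282 in RUNX3KO, LIN28B at 3.66 and 4.82, and HMGA2 at 1.92 and 2.53. With the length of the MANE transcript, HMGA2 stood above LIN28B instead, at 7.02 and 9.27 against 3.99 and 5.26 CPM per kb.

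**Figure D2:**
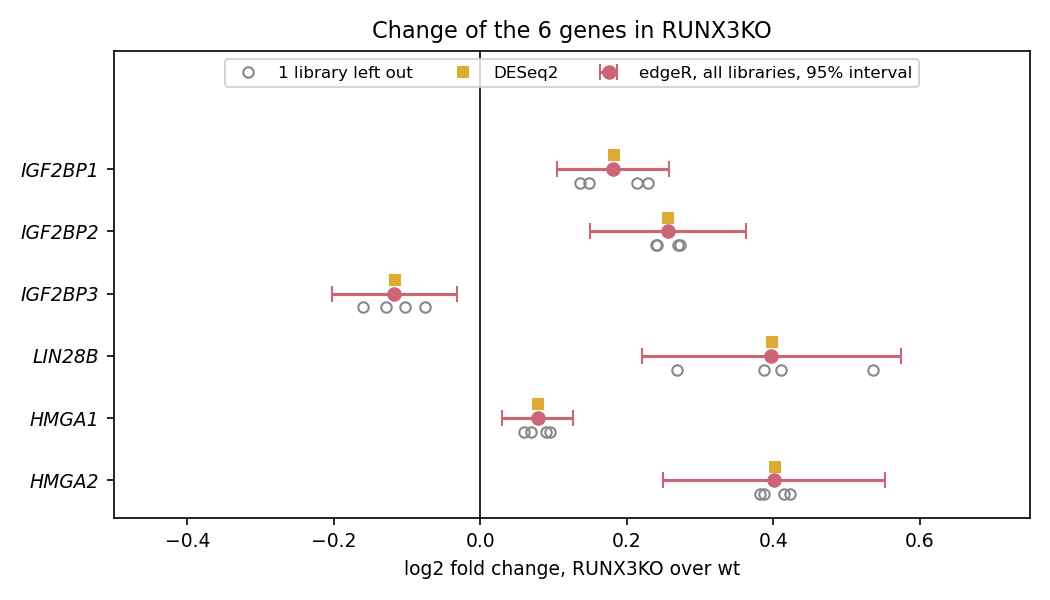
The horizontal axis is the log2 fold change of RUNX3KO over wt, with a filled point and 95% interval per gene from edgeR on all libraries, open circles with 1 library left out and squares from DESeq2. All points of IGF2BP3 lie below 0 and all points of the other 5 genes above 0, and the open circles of LIN28B are spread from 0.27 to 0.54.

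The other parts of the LIN28 and let-7 pathway moved in both directions. Of 20 genes listed, 17 were tested, of which 6 were higher, 5 lower and 6 without a call, with a median of 0.060 on the log2 scale. In nuclear processing, DROSHA, the RNase that cuts primary miRNAs, was higher (log2 fold change 0.36, SE 0.0404) and its partner DGCR8 lower (-0.45, SE 0.0539). XPO5, the exporter of miRNA precursors, was higher (0.23) and DICER1, which cuts them in the cytoplasm, was lower (-0.26). TUT7, a uridylyltransferase that acts on let-7 precursors, was higher (0.31), as were TARBP2 (0.13), AGO2 (0.21) and KHSRP (0.13), while AGO4 was lower (-0.26). These called genes were all named after their values were seen. DROSHA, DGCR8 and DICER1 moved in the same direction as the genes around them: the 40 closest tested neighbours had a median (log2) of 0.37 around DROSHA on chromosome 5, -0.53 around DGCR8 on chromosome 22 and -0.30 around DICER1 on chromosome 14. On chromosome 22 as a whole, 84.5% of 296 tested genes were called lower, with a median of -0.52. The part of this shift in the changes of single genes was not tested. With DESeq2, 7 of the 17 were called, beside 28.5% of all tested genes.

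Both genes of this list that passed a 2-fold change were host transcripts of let-7 miRNAs. MIRLET7BHG, which contains let-7b, had 104 and 108 counts in wt and 49 and 57 counts in RUNX3KO (log2 fold change -1.01, SE 0.169, adjusted p = 3.17e-07). MIR100HG, which contains a let-7a copy, had 69 and 67 counts in wt and 29 and 21 counts in RUNX3KO (log2 fold change -1.45, SE 0.227, adjusted p = 5.38e-08). MIR99AHG (row LINC00478), which contains let-7c, had 79 and 102 counts in wt and 103 and 96 counts in RUNX3KO and was not called (log2 fold change 0.12, SE 0.153, adjusted p = 0.533), with a 95% interval from -0.18 to 0.43. MIRLET7BHG also lies on chromosome 22, where its 40 closest neighbours had a median of -0.53 (log2), and the 40 around MIR100HG on chromosome 11 had one of -0.13. KHSRP, a let-7 processing factor and the most abundant gene of the list, had 6008 and 5679 counts in wt and 6326 and 6556 counts in RUNX3KO. Host transcripts are not mature miRNAs, and mature let-7 was not measured in these poly(A) libraries.

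Other known let-7 targets did not share 1 direction either. Of 26 listed genes, 22 were tested, with 8 higher, 5 lower and 9 without a call and a median change of 0.068 (log2). THBS1, a matrix glycoprotein, was the only one past 2-fold and fell from 1010 and 998 counts in wt to 375 and 392 counts in RUNX3KO (log2 fold change -1.40, SE 0.0610, adjusted p = 2.11e-36). MYC, the most abundant of the list, had 4253 and 3973 counts in wt and 4062 and 4195 counts in RUNX3KO, and the groups overlapped (log2 fold change -0.0079, SE 0.0295, adjusted p = 0.852). With DESeq2, 7 of the 22 were called, beside 28.5% of all tested genes.

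Read by the number of seed matches in the 3′ UTR, the tested genes had medians close to 0 in the classes with no match, 1 match and 2 or more. The median log2 fold change was 0.0075 for 10417 genes with no match, 0.0015 for 1172 genes with 1 match and -0.0078 for 163 genes with 2 or more. The shares called higher were 26.5%, 25.1% and 24.5% in the same order, and the shares called lower were 24.9%, 27.2% and 24.5%. Among tested genes, 11 held 4 or more matches, and HMGA2, LIN28B and IGF2BP1 were among them. The median log2 fold change of these 11 was 0.18, which was the value of IGF2BP1 itself, and the 8 without HMGA2, LIN28B and IGF2BP1 had a median of -0.14. Of these genes, 4 were higher, namely HMGA2, LIN28B, IGF2BP1 and IGDCC3 (log2 fold change 0.59). HIC2 (-0.44) was lower, so genes with many matches did not share 1 direction. IGDCC3 and HIC2 were named after their values were seen, and the medians of their 40 closest neighbours were 0.28 and -0.55 (log2).

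RNAs known to be bound by IGF2BP proteins were also divided. Of 21 listed, 18 were tested, with 5 higher, 6 lower and 7 without a call and a median change of 0.0087 (log2). H19, an imprinted noncoding RNA, rose from 40 and 43 counts in wt to 91 and 100 counts in RUNX3KO (log2 fold change 1.19, SE 0.184, adjusted p = 4.52e-08). CD44, the hyaluronan receptor, had 1266 and 1221 counts in wt against 129 and 125 counts in RUNX3KO (log2 fold change -3.30, SE 0.0751, adjusted p = 9.96e-58). GLI1, a Hedgehog effector, and SNAI2, an EMT transcription factor, were lower, with log2 fold changes of -1.08 and -1.94. ACTB, the most abundant of the list, was not called (log2 fold change -0.043, adjusted p = 0.0535).

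Partner proteins with which IGF2BP1 sits on coding-region determinants changed little in size. Of 10 listed and tested, 7 were higher, 1 was lower (YBX1, named after its value was seen) and 2 were without a call, with log2 fold changes between -0.11 and 0.28 and a median of 0.12. HNRNPU, the most abundant, had 17013 and 16661 counts in wt and 18519 and 18916 counts in RUNX3KO (log2 fold change 0.14, SE 0.0211, adjusted p = 2.31e-08). Among 17 writers, erasers and readers of m6A, 5 were higher, 3 lower and 9 without a call, so that 47.1% were called, beside 48.9% of all tested genes. None passed 2-fold. Without RUNX3KO replicate 2, edgeR's test called 0 of these 17, and 4 had an unadjusted p under 0.05. That fit called 20.1% of all tested genes. With all libraries, DESeq2 called 3 of the 17 and 28.5% of all tested genes. HNRNPA2B1, the most abundant, was higher (log2 fold change 0.12, SE 0.0210, adjusted p = 5.71e-07).

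Among 12 other high-mobility-group genes, 3 were higher, 5 lower and 4 without a call. Their median was -0.016 (log2) and none passed 2-fold. HMGB1, the most abundant, had 3718 and 3799 counts in wt and 3807 and 4029 counts in RUNX3KO and was not called (log2 fold change 0.047, adjusted p = 0.191). Of 13 genes linked to HMGA1 or HMGA2 activity, 11 were tested, with 4 higher and 5 lower. CCNA2, a cyclin whose promoter HMGA2 can derepress and the most abundant of the list, was higher (log2 fold change 0.24, SE 0.0416, adjusted p = 1.10e-06). CDKN2A, which encodes the p16 cell-cycle inhibitor, rose from 745 and 776 counts to 1514 and 1560 counts (log2 fold change 1.00, SE 0.0474, adjusted p = 7.36e-34), and SNAI2 is also on this list. The 40 neighbours closest to CDKN2A, on chromosome 9, had a median of 0.72 (log2).

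Most other oncofetal genes had next to no RNA in HGC-27. Of 17 listed, 10 were too low to test, among them AFP, CEACAM5, SALL4 and LIN28A. Of the 7 tested, 2 were higher, 4 lower and 1 without a call, and their median was -0.40 (log2), on the other side of 0 from the median of the 6 genes. NCAM1, a neural adhesion molecule, fell from 598 and 600 counts to 144 and 145 counts (log2 fold change -2.06, SE 0.0872, adjusted p = 2.51e-37). PEG10, an imprinted retrotransposon-derived gene and the most abundant, went from 4751 and 4552 counts to 2676 and 2894 counts (log2 fold change -0.75, SE 0.0309, adjusted p = 2.85e-38), and H19 is also on this list. Of 22 other RNA-binding regulators of cell state, 19 were tested, with 4 higher, 3 lower and 12 without a call. HNRNPK, the most abundant, was higher (log2 fold change 0.22, SE 0.0224, adjusted p = 9.52e-15).

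The 6 genes lie in 6 separate regions on 5 chromosomes, whose median log2 fold changes over all tested genes were between -0.0040 (chromosome 6) and 0.033 (chromosome 17), and each was compared with the 20 nearest tested genes on either side. Around IGF2BP1 the median log2 fold change of these 40 genes was -0.13, with 16 called lower and 8 higher, and 5 of the 40 rose at least as far as IGF2BP1. The HOXB genes lie in this region, and HOXB9, the best expressed of those called lower, had a log2 fold change of -0.88; it was picked after its value was seen. Around LIN28B the median was -0.036, and its direct neighbours HACE1 (-0.43, adjusted p = 0.0169) and PREP (-0.40, adjusted p = 4.51e-07) were both lower, while 3 of the 40 rose at least as far as LIN28B. Around HMGA2 the median was 0.043, with 2 of the 40 at least as high.

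Around IGF2BP2 and HMGA1 the medians were 0.0043 and 0.000049, with 3 and 15 of the 40 genes at least as high. Around IGF2BP3 the median was 0.018, and 12 of the 40 were at least as low. GPNMB, a lysosomal and melanosomal glycoprotein whose start lies 234.5 kb from that of IGF2BP3, had a log2 fold change of 1.81 (adjusted p = 7.88e-53), in the opposite direction, and was picked after its value was seen.

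The genes whose pattern over the 4 libraries was closest to each of the 6 were taken from 10869 genes with a mean of at least 50 counts, by the Euclidean distance of log2 CPM centred on each gene's mean. The nearest were RPIA for IGF2BP1 (distance 0.0070), PTDSS1 for IGF2BP2 (0.0080), PCDHA10 for IGF2BP3 (0.0027), EPHA5 for LIN28B (0.0275), PELP1 for HMGA1 (0.0067) and UBA2 for HMGA2 (0.0199). They were followed by ZNF768 and SEC23B, TMEM141 and NCAPD3, PRKAB1 and EP400, PIGQ and PKDCC, RAD21 and HADHB, and YARS2 and PRKAA1, in the same order. None of the 6 genes was among the nearest of another. The genes so named have log2 fold changes close to that of the gene they resemble, and no shared function is implied.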

How the data were processed

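Poly(A) RNA from 2 wt and 2 RUNX3KO libraries of HGC-27 was sequenced, and groups were taken from the labels. The authors deposited raw counts per gene symbol for each library, not normalized. The processing notes in the labels name bcl2fastq, HISAT2 2.1.0, HTSeq and hg19, whereas the paper's methods name STAR and featureCounts; the tables end with 5 rows of reads without a gene in the form HTSeq writes. These rows took 25.9% to 28.1% of counts per library and were left out.

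Counts were analysed with edgeR 4.0.16 in R 4.3.3. Genes were kept by filterByExpr (minimum count 10, minimum total 15), which left 12967, libraries were scaled by TMM, and groups were compared by its quasi-likelihood test, adjusted by Benjamini and Hochberg's method. The script was tested on simulated data with planted changes larger than those of the genes examined, so that test does not cover changes of their size. CPM uses TMM-scaled library sizes. Alternatives were other scalings and filters, DESeq2 1.42.0, limma-voom 3.58.1, edgeR's exact test, a replicate block and leaving out each library. SE is the log2 fold change divided by the root of its F statistic. With 25559 symbols, 22753 were placed on GRCh37 (GENCODE v44lift37), on which exon lengths, 3′ UTRs and neighbours rest. MANE lengths, 8mer matches and medians by chromosome were added after seeing the data.

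The 6 genes and all lists were chosen with earlier results of these data known, and no list was tested as a set. Genes named from a list were those called with a fold change of at least 2 and the most abundant one. Other genes named are markers, examples of genes too low to test, list members set beside these, neighbours, genes that overlap one of the 6, the 3 closest in pattern, or are said to be chosen by value. Among the genes with 4 or more let-7 seed matches, 1 called gene is not reported here.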

Additional observations from a re-analysis of the deposited data

How the results depend on the processing

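The sign of the log2 fold change of each of the 6 genes was the same in every alternative run. Leaving out 1 library at a time gave log2 fold changes of 0.14 to 0.23 for IGF2BP1, 0.24 to 0.27 for IGF2BP2, -0.16 to -0.075 for IGF2BP3, 0.27 to 0.54 for LIN28B, 0.060 to 0.095 for HMGA1 and 0.38 to 0.42 for HMGA2, and between 1 and 5 of the 6 were called higher and 0 to 1 lower. Each such fit takes the spread from the other group alone. All-gene calls also fell, from 6341 to 3014 without RUNX3KO replicate 1, 2663 without RUNX3KO replicate 2, and 3692 with DESeq2. IGF2BP3 (log2 fold change -0.12 with DESeq2, -0.11 with no filter) and HMGA1 (0.079 with DESeq2) lost their calls, which left 0 of the 6 called lower in both settings and 4 higher with DESeq2; at an unadjusted p under 0.05, 0 were lower with DESeq2 and 1 with edgeR and no filter. Of all tested genes, 27.8% were called with no filter and 28.5% with DESeq2, against 48.9% in edgeR's quasi-likelihood test with the filter. Subtracting the median of the 40 nearest genes gave 0.32 for IGF2BP1 and 0.36 for HMGA2.

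Without 1 library, the number of called genes ranged from 6 to 9 for LIN28 and let-7 processing, 4 to 10 for let-7 targets, 6 to 10 for IGF2BP-bound RNAs, 4 to 8 for IGF2BP1 partners, 0 to 5 for m6A factors, 5 to 8 for other high-mobility-group genes, 5 to 9 for genes linked to HMGA, 3 to 5 for other oncofetal genes and 3 to 7 for other RNA-binding regulators, and each lowest number came without RUNX3KO replicate 1 or 2. With DESeq2 they were 7 for LIN28 and let-7 processing and 7 for let-7 targets. For m6A factors they were 5 by library size only, 5 by upper-quartile scaling, 3 with no filter and 3 with DESeq2. The cause of these shifts was not tested.

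The replicate numbers are not shown to pair the libraries (correlation of same-numbered deviations -0.0037), and with the replicate block 6286 genes were called, 5 of the 6 higher and 1 lower. Scalings moved the median of all genes by at most 0.0207. With 2 libraries a group, the smallest difference of the 6 genes, that of HMGA1, was called or not depending on the test used.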
